A study of Mus musculus with 4 samples.

Results

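Runx3 occupied 2965 regions at CpG-rich promoters in splenic CD4+ DC, of 15121 bound regions in all, or 19.6%. A bound region was counted here when its centre lay within 1 kb of a transcription start site (TSS) of a protein-coding gene and its whole sequence had a GC content of at least 55% and a CpG observed/expected ratio of at least 0.6. That ratio is the number of CpG dinucleotides divided by the number that the C and G content alone would give. Regions within 1 kb of TSS of protein-coding genes on both strands were left out. The study immunoprecipitated Runx3 with a polyclonal home-made antibody from CD11chiMHCII+CD4+ conventional DC collected from approximately 15 mice. The labels name the Runx3 samples as biological replicates. There were 2 Runx3 samples and 2 input samples of whole cell extract chromatin, and the labels give the strain as C57BL/6 for all but 1 input sample, which is labelled C57BL/7. All 4 samples went into 1 call of bound regions, so that each region has 1 score and no value per replicate, and no spread between replicates can be given. Peaks hold no expression values, and the identity of the sorted cells could not be checked against marker genes. Animal age is not given in the labels.

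RUNX proteins bind DNA as a heterodimer with CBFβ and recognise the hexamer TGTGGT and its C-containing form TGCGGT. Vertebrate genomes are poor in CpG because methylated cytosines mutate readily, and promoters that stay unmethylated keep a high CpG content. Such promoters belong mostly to broadly expressed genes and often hold sites for SP/KLF, ETS and NFY factors rather than a TATA box. Other groups of regions served for comparison. They were 1820 CpG-poor promoter peaks, which lay at a protein-coding TSS but missed either composition limit, 9376 distal peaks more than 1 kb from every annotated TSS, and promoters without a peak.

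Sequences of 9 of these promoters show the 4 forms of the RUNX hexamer that were searched on both strands, printed in capitals: the canonical TGTGGT, its C form TGCGGT, and CGTGGT and CGCGGT, which start with C. Each is read along its gene from the mm9 assembly (NCBIM37), lies in the 200 bp around the peak centre, and holds no more than 30 bases of untranslated exon, which shortened some of them. Brpf1 (chr6:113256635-113256834, plus strand), Nub1 (chr5:24191343-24191542, plus strand), Zfp963 (chr8:72273568-72273763, minus strand) and Eif3g (chr9:20703041-20703240, minus strand) stand for the highest scores. Of these Brpf1 shows the most strongly scored region, which holds no form in the window, and the other three show the C form, in Nub1 as its complement. In Eif3g the second block of capitals is a palindrome in which CGCGGT was found on both strands. Cbfb (chr8:107694184-107694383, plus strand) is the promoter of the RUNX partner itself. Rpl22 (chr4:151699963-151700122, plus strand), Psmd7 (chr8:110112129-110112282, minus strand) and Setd8 (chr5:124889791-124889968, plus strand) lead their gene groups, the first and second with TGTGGT. Lrrk1 (chr7:73533207-73533386, minus strand) had no form of the hexamer anywhere in its peak.
Brpf1: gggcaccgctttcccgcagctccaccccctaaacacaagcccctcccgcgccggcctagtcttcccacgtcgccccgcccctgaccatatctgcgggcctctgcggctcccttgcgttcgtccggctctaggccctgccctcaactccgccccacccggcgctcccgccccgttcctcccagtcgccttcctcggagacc
Nub1: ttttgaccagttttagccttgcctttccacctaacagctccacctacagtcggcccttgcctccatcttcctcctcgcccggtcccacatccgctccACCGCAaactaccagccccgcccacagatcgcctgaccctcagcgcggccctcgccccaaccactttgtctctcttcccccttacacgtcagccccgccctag
Zfp963: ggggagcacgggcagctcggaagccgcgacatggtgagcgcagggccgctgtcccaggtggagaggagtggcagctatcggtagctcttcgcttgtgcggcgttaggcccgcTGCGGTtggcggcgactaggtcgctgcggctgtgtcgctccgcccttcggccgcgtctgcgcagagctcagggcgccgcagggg
Eif3g: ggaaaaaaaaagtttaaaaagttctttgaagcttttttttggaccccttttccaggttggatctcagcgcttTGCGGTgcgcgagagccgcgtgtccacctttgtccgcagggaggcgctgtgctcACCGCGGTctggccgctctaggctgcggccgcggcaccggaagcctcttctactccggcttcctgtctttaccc
Cbfb: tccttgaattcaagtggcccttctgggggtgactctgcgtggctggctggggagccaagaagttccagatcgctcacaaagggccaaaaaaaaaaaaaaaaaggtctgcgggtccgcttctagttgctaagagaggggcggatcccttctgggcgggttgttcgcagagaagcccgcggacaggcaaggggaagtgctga
Rpl22: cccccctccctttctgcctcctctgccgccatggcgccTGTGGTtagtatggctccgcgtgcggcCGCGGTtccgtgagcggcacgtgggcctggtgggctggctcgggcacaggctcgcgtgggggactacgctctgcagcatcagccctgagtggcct
Psmd7: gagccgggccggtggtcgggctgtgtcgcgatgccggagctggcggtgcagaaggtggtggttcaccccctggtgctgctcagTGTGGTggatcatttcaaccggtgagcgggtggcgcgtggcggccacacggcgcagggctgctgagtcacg
Setd8: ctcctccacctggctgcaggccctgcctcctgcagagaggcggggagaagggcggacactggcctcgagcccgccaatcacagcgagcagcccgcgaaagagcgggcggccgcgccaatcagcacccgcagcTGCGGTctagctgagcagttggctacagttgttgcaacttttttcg
Lrrk1: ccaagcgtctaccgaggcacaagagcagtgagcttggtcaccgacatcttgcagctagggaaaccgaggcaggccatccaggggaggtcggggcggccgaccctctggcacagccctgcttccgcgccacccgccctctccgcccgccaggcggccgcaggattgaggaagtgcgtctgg

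Scores of the CpG-rich promoter peaks ran from 1.37 to 175.79, with a median of 12.69 and quartiles of 7.2 and 22.33. The score is the number that the peak caller wrote, in a unit that is not stated, and it served only to order peaks. The median was 11.33 for CpG-poor promoter peaks and 12 for distal peaks, and the highest scores in those groups were 264.31 and 309.3. At or above the list median of 12.14 lay 51.4% of the CpG-rich promoter peaks (Wilson 95% interval 49.6 to 53.2) and 48.1% of the CpG-poor ones (45.8 to 50.4). The difference of 3.27 percentage points had an interval of 0.35 to 6.18 (Newcombe 95% interval), and it turned to -2.94 (-5.78 to -0.0975) with a GC minimum of 60%. Against distal peaks the difference was 1.57 points (-0.494 to 3.63), which the counting error covers. At or above the upper quartile of the list, 23.19, lay 24.4% of the CpG-rich, 24.1% of the CpG-poor and 25.9% of the distal peaks. Neither difference left out 0. They had a median width of 438 bp, against 407 bp for CpG-poor promoter peaks and 396 bp for distal peaks. Their median GC content was 63.1% and their median CpG ratio 0.829, both set by the choice of regions.

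The highest score belonged to Brpf1, a scaffold of MOZ/MORF histone acetyltransferase complexes, with 175.79 (mm9 chr6:113256260-113257209, centre at -440 bp from the TSS). Next came Lrrk1, a leucine-rich repeat kinase, with 147.84. Nub1, which restrains ubiquitin-like proteins, scored 135.68 and Smcr7, a mitochondrial outer membrane protein, 133.02. Tsc22d2 scored 123.75, E4f1, a zinc finger regulator, 117.2 and the zinc finger gene Zfp963 108.17. Ywhag, a 14-3-3 protein, scored 107.76, the transcription factor gene Creb1 106.89 and the translation initiation factor gene Eif3g 104.35. The kinase Stk25, the phosphoinositide phosphatase Mtmr4 and the deubiquitinase Usp36 shared 103.1, and the deubiquitinase Otud6b scored 101.84. The 15 peaks of highest score lay between -873 bp (Tsc22d2) and 193 bp (Zfp963) of their TSS. Of the 15, 10 were upstream, as were 62.5% of all CpG-rich promoter peaks. No other peak lay within 10 kb for 9 of them, and 33.9% of all CpG-rich promoter peaks had such a neighbour. In the 200 bp around the centre none held TGTGGT, 5 held TGCGGT and 8 at least 1 of the 4 forms. Among all CpG-rich promoter peaks these shares were 11.9%, 19.6% and 54.1%. Over the whole peak 13 of the 15 held at least 1 form, the exceptions being Lrrk1 and Tsc22d2. TGTGGT was present there in 4 (Brpf1, Smcr7, Mtmr4 and Otud6b) and in 23.9% of all CpG-rich promoter peaks. The 15 peaks were 576 to 1511 bp wide, against a median of 438 bp, so that more sequence was searched in them. The share of all CpG-rich promoter peaks with any form over the whole peak is not given here, and the 13 cannot be set against it.

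The composition limits cut through a continuous range. With GC closest to 55% lay Asxl1 (55%, score 21.46), Pot1a (55%, 16.53) and Ehd1 (55.01%, 53.66) inside, and Vcp (54.99%, 21.46), Psmb1 (54.98%, 4.23) and Nufip2 (54.97%, 25.71) outside. Near the CpG ratio of 0.6, Ccdc88c (5.26), Socs1 (16.28) and Atad2b (13.39) were inside, and Wdr61 (18.95), Orai2 (13.43) and Kptn (60.23) outside. Under a GC content of 57% lay 244 peaks, and 187 had a CpG ratio under 0.65.

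Peaks at CpG-rich promoters sat close to the TSS. Their centres had a median position of -32 bp, with quartiles at -129 and 35 bp, where negative values are upstream. Within 50 bp on either side lay 34.1% of the centres, and 28.4% lay from 200 to 51 bp upstream. The TSS was inside the peak for 2390 of the 2965, or 80.6%, compared with 48.0% of CpG-poor promoter peaks. Centres within 100 bp of the TSS made up 54.9% and 28.6%, a difference of 26.3 points (23.6 to 29.0). Peaks were sorted into these groups by the composition of their own sequence, which can vary with distance from the TSS. The part of this sorting in the difference was not tested. The share of centres upstream of the TSS was 62.5% and 61.5%, which did not differ beyond counting error (1.01 points, -1.81 to 3.85). By annotation, 1470 centres (49.6%) lay outside the gene, 872 (29.4%) in untranslated exon parts, 405 (13.7%) in introns, 189 (6.37%) in coding exons and 29 in exons of noncoding transcripts. Median scores were 13.43 outside the gene, 12.07 in untranslated parts, 11.24 in coding exons and 10.53 in introns. A noncoding TSS on the opposite strand, within 1 kb of the TSS, was annotated for 294 peaks (9.92%) and for 6.1% of CpG-poor promoter peaks, a difference of 3.82 points (2.24 to 5.33).

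**Figure D1:**
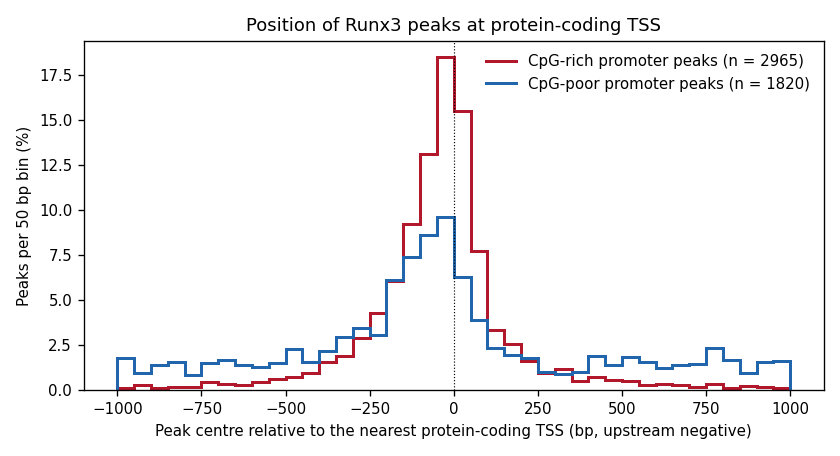
Share of peaks per 50 bp bin (vertical axis, %) against the position of the peak centre relative to the nearest protein-coding TSS (horizontal axis, bp), for 2965 CpG-rich and 1820 CpG-poor promoter peaks. The CpG-rich peaks pile up at the TSS, with a median at -32 bp, and the CpG-poor peaks are spread more widely, with quartiles at -267 and 167.5 bp.

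TGTGGT, the canonical RUNX hexamer, was much rarer in CpG-rich promoter peaks than in CpG-poor promoter peaks or distal peaks. In the 200 bp around the centre it was found in 354 of 2965 peaks, or 11.9% (10.8 to 13.2). It was found in 38.0% of CpG-poor promoter peaks and 53.9% of distal peaks, so that the differences were -26.0 points (-28.5 to -23.5) and -42.0 points (-43.5 to -40.4). Over the whole peak 709 (23.9%) held it, against 51.3% and 66.1%. At least 2 copies in the window were seen in 25 peaks (0.843%), 6.48% of CpG-poor promoter peaks and 12.7% of distal peaks. At the TSS of all protein-coding genes, bound or not, 10.3% held TGTGGT in a window of equal length. That window was not centred on the TSS and reached farther towards lower coordinates. Base composition, which the choice of regions used, differs between these groups, and its part in the difference was not tested. With any of the 4 forms the gap narrowed to 54.1% of CpG-rich promoter peaks, 60.7% of CpG-poor ones (-6.58 points, -9.44 to -3.7) and 65.3% of distal peaks. All promoters, CpG-poor ones among them, held any form in 27.4%. CpG-rich promoters without a peak held any form in 51.7%, in a longer window of 400 bp around the TSS.

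The C form TGCGGT, which contains a CpG, behaved otherwise. It was present in the window of 580 CpG-rich promoter peaks, or 19.6% (18.2 to 21.0), and 18.6% of CpG-poor promoter peaks (0.99 points, -1.32 to 3.25). Distal peaks held it in 11.0%, 8.59 points fewer (7.05 to 10.2), and all promoters in 5.72%. CGCGGT was found in 22.2% of CpG-rich promoter peaks and 5.77% of CpG-poor ones, and CGTGGT in 12.7% and 8.46%. Relative to the peak centre, TGCGGT reached 7.45 copies per 100 CpG-rich promoter peaks in the 50 bp bin next to the centre, and 1.05 in the bin 500 bp below it. In the same central bin the CpG-poor peaks had 7.2 and the distal peaks 4.85. TGTGGT reached only 4.22 per 100 CpG-rich promoter peaks at the centre, compared with 17.6 in CpG-poor and 27.2 in distal peaks. In all 3 groups the highest bin was the one on the side of higher coordinates. For peaks with a single TGTGGT within 150 bp the median offset was 14.5 bp in that direction at CpG-rich promoters (444 peaks), 22.5 bp at CpG-poor ones and 20.0 bp in distal peaks. Moving the window by 25 bp, an alternative chosen after seeing the data, left the differences in TGTGGT at -26.0 and -42.0 points.

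**Figure D2:**
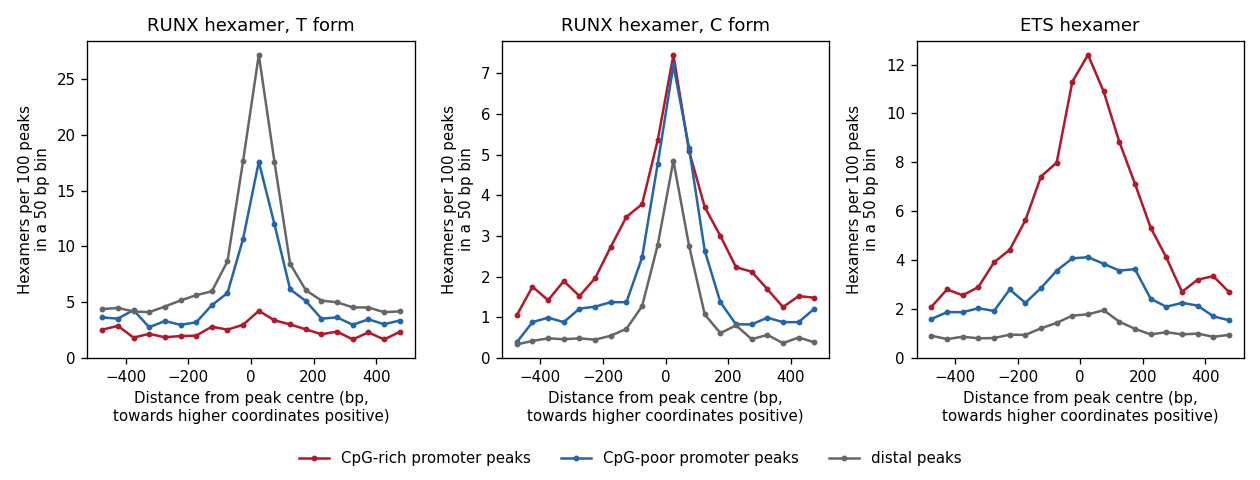
Copies per 100 peaks in 50 bp bins (vertical axes) against the distance from the peak centre (horizontal axes, bp) for the T form of the RUNX hexamer, its C form and an ETS hexamer, in CpG-rich promoter, CpG-poor promoter and distal peaks. The T form peaks at 27.2 in distal and 4.22 in CpG-rich promoter peaks, the C form at 4.85 and 7.45, and ETS at 12.4 in CpG-rich promoter peaks.

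Comparison with hexamers of the same letters held base composition constant. Among all arrangements of 3 G and 3 T, which hold no CpG, TGTGGT ranked 1 in CpG-rich promoter peaks at 11.9%, and the other 19 were found in 5.46% to 11.3%, with a median of 8.5%. The arrangement that ranked 2, GTGGTT at 11.3%, overlaps TGTGGT by 5 letters. Among arrangements of the letters of TGCGGT that keep a CpG, a set chosen after seeing the data, TGCGGT ranked 1 at 19.6%, and the other 29, CGTGGT among them, ran from 4.65% to 16.8% with a median of 8.47%. GCGGTT, which overlaps it, came next. After TGCGGT, read on its own strand, the next base was T in 20.9% of copies in CpG-rich promoter peaks and in 13.0% (10.8 to 15.6) of copies at CpG-rich promoters without a peak. It was T in 26.9% of copies in the highest of 4 score groups. In distal peaks T followed in 38.7% and in CpG-poor promoter peaks in 33.7%.

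Within the CpG-rich promoter peaks, RUNX hexamers became more frequent with score. The peaks were ordered by score and divided into 4 groups of 741 or 742. From the lowest to the highest group, TGCGGT was found in 12.1%, 16.6%, 19.8% and 29.7% of peaks, an increase from bottom to top of 17.6 points (13.5 to 21.6). TGTGGT was found in 7.82%, 11.6%, 11.7% and 16.6%, an increase of 8.78 points (5.48 to 12.1). Any of the 4 forms rose from 43.7% to 65.7% (22.1 points, 17.0 to 26.9). CGCGGT differed by 7.99 points (3.78 to 12.2), and CGTGGT by 2.04 points (-1.45 to 5.54), which counting error covers. In the 100 CpG-rich promoter peaks of highest score, 59.12 or more, TGCGGT was found in 42.0% (32.8 to 51.8), TGTGGT in 15.0% (9.31 to 23.3) and any form in 69.0%. Among the hexamers with the letters of TGCGGT and a CpG, the increase of TGCGGT from the lowest to the highest group again ranked 1, against -2.96 to 11.9 points for the other 29. For comparison, TGCGGT increased by 11.4 points (6.23 to 16.6) between the outer score groups of CpG-poor promoter peaks and by 5.25 points (3.44 to 7.06) in distal peaks, and TGTGGT by 11.6 and 12.4 points. Width rose and GC content fell along the 4 groups as well, from a median of 310.5 to 570 bp and from 64.9% to 61.9%, and their part in the increase was not tested. The 200 bp window was the same for all peaks.

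Read the other way, peaks with TGTGGT in the window reached the list median in 59.6% and those without in 50.3%, a difference of 9.32 points (3.79 to 14.7). The median score was 12.38 with no TGTGGT, 14.96 with 1 copy (329 peaks) and 18.95 with 2 or more (25 peaks). For TGCGGT it was 11.96 with none, 16.53 with 1 copy (530 peaks) and 20.2 with 2 or more (50 peaks). For any of the 4 forms the share at or above the list median was 44.0% with none (41.4 to 46.7), 55.4% with 1 (52.6 to 58.3) and 63.1% with 2 or more (58.6 to 67.4). Within the CpG-poor promoter peaks TGTGGT went with a difference of 6.63 points (1.9 to 11.3). TGCGGT was less frequent in peaks with TGTGGT than in those without, at 13.6% and 20.4% (-6.82 points, -10.4 to -2.58). So were the SP/KLF GC box GGGCGG (-8.22 points, -13.7 to -2.76), TGACGT (-3.98, -6.5 to -0.673) and TGACGTCA (-2.03, -3.15 to -0.0781), which also contain a CpG. The ETS hexamer CGGAAG (1.27, -3.73 to 6.61) and the other motifs compared did not differ beyond counting error. The part of base composition was not tested. The 5 peaks with the most copies of TGTGGT, 4 each over the whole peak, were those of Ift57, a subunit of the intraflagellar transport complex (85.79), Unk (62.46), Iqce (38.11), Rbm4b, a splicing regulator (26.87), and Iqgap2, a scaffold protein (19.78). Copies of TGTGGT read along the gene in 214 of 380 cases (56.3%, 51.3 to 61.2), and the copy nearest the TSS was upstream of it in 61.6% of the 354 peaks. This is close to the 62.5% of all CpG-rich promoter peaks whose centre was upstream.

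**Figure D3:**
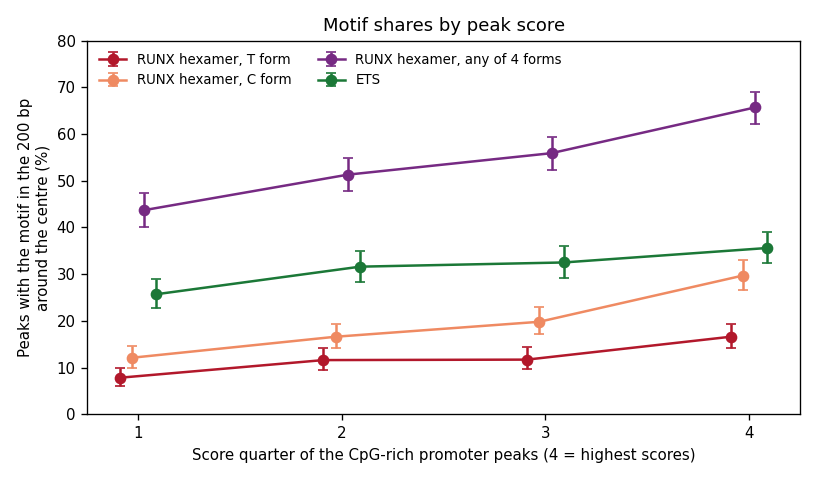
Share of CpG-rich promoter peaks with a motif in the 200 bp around the centre (vertical axis, %, bars are Wilson 95% intervals) by score group (horizontal axis, 4 groups of about equal size, 4 is highest). The C form of the RUNX hexamer goes from 12.1% to 29.7%, the T form from 7.82% to 16.6%, any of the 4 forms from 43.7% to 65.7%, and ETS from 25.7% to 35.6%.

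Motifs of other factors separated the CpG-rich from the CpG-poor promoter peaks. Of 16 motifs compared, counting the RUNX forms, 9 were more frequent and 6 less frequent in CpG-rich promoter peaks. The SP/KLF GC box (GGGCGG) was found in 60.9% and 22.9%, with 38.1% of all promoters, and the ETS hexamer CGGAAG in 31.4% and 13.0%, with 16.3% of all promoters. The NFY box (CCAAT) was found in 28.8% and 24.7%, the zDC hexamer TGACGT in 10.3% and 6.04%, the E-box CACGTG in 9.11% and 5.0%, and the NRF1 motif GCGCATGC in 4.38% and 1.37%. TGACGT is also contained in the CRE, TGACGTCA, which was found in 3.2% and 1.37%. YY1 (AAGATGGCG) was found in 3.31% and 0.549%, and ZBTB33 (TCTCGCGA) in 1.89% and 0.33%. Lower in CpG-rich promoter peaks were the IRF motif AANNGAAA (7.72% and 23.9%), the PU.1-like motif GAGGAAGT (2.36% and 8.35%), AP-1 (TGACTCA, 1.55% and 4.4%) and the TATA box (TATAAA, 1.82% and 6.04%). Both strands were searched, and composition, which the groups do not share, bears on each of these shares.

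CpG-rich promoters with and without Runx3 were closer in composition. Of the protein-coding genes, with 1 TSS each and no divergent partner, 8180 had a CpG-rich promoter in the 400 bp around the TSS, and 2922 of them (35.7%) were bound by a peak of any class within 1 kb. Of 11608 CpG-poor promoters 829 were bound (7.14%), which is 28.6 points fewer (27.4 to 29.7). Bound CpG-rich promoters had a median GC content of 65.5% and a CpG ratio of 0.868, and unbound ones 68.0% and 0.841. The share with ETS was 46.9% among bound and 31.0% among unbound promoters, a difference of 15.9 points (13.7 to 18.1). NFY followed with 43.5% and 33.8% (9.7 points, 7.5 to 11.9), TGCGGT with 21.6% and 13.1% (8.42, 6.69 to 10.2), zDC with 18.2% and 10.9% (7.33, 5.72 to 8.98) and TGTGGT with 16.5% and 9.89% (6.61, 5.06 to 8.2). Any of the 4 RUNX forms was found in 65.0% and 51.7% (13.3, 11.1 to 15.4). Of the forms that start with C, CGTGGT was found in 18.8% and 13.0%, and CGCGGT in 32.5% and 29.0%. Of the 16 motifs 13 were more frequent at bound promoters and 0 less frequent. The GC box did not differ beyond counting error (83.5% and 84.8%, -1.27 points, -2.94 to 0.372), and neither did AP-1 (-0.126) nor the TATA box (-0.0965). Within the same letters, the difference for TGTGGT ranked 1, with -0.582 to 5.85 points and a median of 1.78 for the other 19 arrangements. That for TGCGGT ranked 2 after GCGGTT (8.72), with a median of 1.35 over the other 29. The lower GC content and the higher CpG ratio of bound promoters move with these differences, and their part was not tested. Between the lowest and highest score groups of CpG-rich promoter peaks, ETS differed by 9.89 points (5.2 to 14.5) and NFY by 5.16 (0.563 to 9.73), and no other motif outside the RUNX forms differed beyond counting error.

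**Figure D4:**
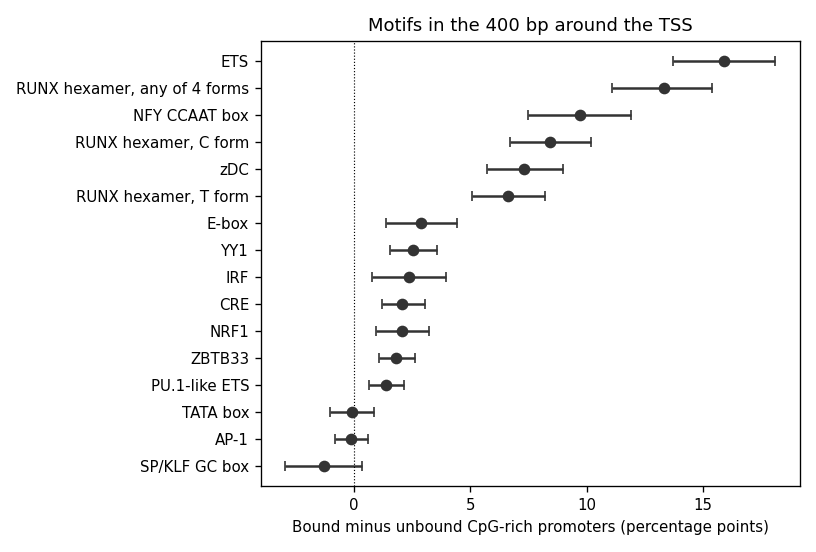
Difference in the share of promoters with a motif in the 400 bp around the TSS, 2922 bound minus 5258 unbound CpG-rich promoters (horizontal axis, percentage points, bars are Newcombe 95% intervals), for 16 motifs. ETS lies at 15.9 points, the T and C forms of the RUNX hexamer at 6.61 and 8.42, and the GC box at -1.27.

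CpG-rich promoter peaks stood alone more often than other peaks. Another peak centre lay within 10 kb for 33.9%, compared with 52.5% of CpG-poor promoter peaks (-18.6 points, -21.5 to -15.8) and 44.5% of distal peaks (-10.6 points, -12.6 to -8.61). The peaks belonged to 2863 genes by nearest TSS, and 99 genes had more than 1 of them. Azin1, an inhibitor of antizyme, had 3 with scores of 50.1, 19.8 and 4.23, Brd2, a bromodomain protein, 3 between 4.23 and 9.16, and the acetyltransferase gene Ep300 3 between 5.36 and 9.16. The share of a chromosome's peaks at CpG-rich promoters ran from 15.3% on chromosomes 6 and 13 to 23.2% on chromosome 4. On chromosome X it was 19.6%. Median scores ran from 9.72 on chromosome 18 to 15.73 on chromosome 8, with 9.84 for the 35 peaks on chromosome X.

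A CpG-rich promoter peak lay within 1 kb of a TSS for 2886 of 22367 protein-coding genes, or 12.9%. Among the 8180 genes with a CpG-rich promoter it was 2457, or 30.0%, and gene groups were read against this share. Groups with basic functions in every cell were often above it. Of 14 V-ATPase subunit genes with a CpG-rich promoter, which acidify lysosomes and endosomes, 9 had a peak (64.3%, Wilson 95% interval 38.8 to 83.7). Their median score of 28.55 was high, led by Atp6v0a1 (61.34), Atp6ap2 (44.17) and Atp6v0a2 (33.24). Of the splicing factor genes 21 of 35 had a peak (60%, 43.6 to 74.4), with Prpf3 (54.74), Prpf39 (50.44), Srsf3 (36.14) and Sf3b1 (34.2) highest. RNA polymerase II and Mediator genes followed with 15 of 28 (53.6%, 35.8 to 70.5), among them Med7 (53.66), Med4 (49.03) and Polr2j (36.14). Cytoplasmic ribosomal protein genes reached 26 of 50 (52.0%, 38.5 to 65.2), from Rpl22 (86.99), Rps2 (76.25) and Rps12 (54.26) down to Rpl11 (4.79). RAB GTPase genes, which direct vesicle traffic, reached 18 of 37 (48.6%, 33.4 to 64.1), with Rab8a (56.97), Rab33b (50.44), Rab39 (47.28) and Rab30 (45.58) highest.

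For other groups of broad function the interval reached down to the share of all CpG-rich promoters. E2 ubiquitin-conjugating enzymes had 12 of 25 (48.0%, 30.0 to 66.5), led by Ube2f (73.91), an E2 for NEDD8. Histone lysine modifiers had 16 of 36 (44.4%), led by Setd8 (51.49), the H4K20 methyltransferase. Mitochondrial ribosomal proteins had 13 of 31 (41.9%, led by Mrpl17 at 68.13), and oxidative phosphorylation 13 of 33 (39.4%, led by Cox5a at 37.12). Translation initiation factors had 12 of 30 (40.0%, led by Eif3g at 104.35), and cyclins, their kinases and inhibitors 14 of 35 (40.0%, led by Cdk4 at 45.2). The BCL2 family had 5 of 13 (38.5%), led by Bcl2l11, the gene of the death-promoting protein BIM (20.88). Proteasome subunits had 10 of 31 (32.3%, led by Psmd7 at 61.34), and MAP kinase cascades 9 of 30 (30.0%, led by Mapk14, which encodes p38α, at 36.14). At the low end, 2 of 14 Hox genes had a peak (14.3%, 4.01 to 39.9), the higher score being that of Hoxa7 (15.73). None of 30 developmental homeobox genes with a CpG-rich promoter had one, which allows a share of up to 11.4%. Lens crystallins and keratins, with 3 CpG-rich promoters, had 0.

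Genes of immune and DC function were mixed. Of 37 antigen presentation genes 10 had a CpG-rich promoter, and 6 of these had a peak (60%, 31.3 to 83.2). Of all 37, whatever the composition at the TSS farthest 5', 8 genes had a CpG-rich promoter peak. Among them were the lysosomal protease Lgmn (35.17), tapasin (Tapbp, 33.24), calreticulin (Calr, 25.84) and the MHC class I genes H2-D1 (18.13) and H2-K1 (17.32). Cytokine and chemokine receptors had 7 of 24 (29.2%), led by Il3ra (64.72), the DC growth factor receptor Flt3 (46.24) and Il6ra (31.34). Toll-like receptors and adaptors had 4 of 7, with Traf2 (40.1) and Traf5 (38.68) highest. Notch pathway genes had 5 of 19 (26.3%), namely the protease Adam17 (39.11), Notch2 (20.88), Numb (18.13), Jag1 (11.96) and Adam10 (4.23). TGF-β and SMAD genes had 6 of 23 (26.1%), led by the receptor gene Tgfbr1 (49.38).

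Transcription factor genes of DC and blood cells had 15 of 40 CpG-rich promoters bound (37.5%, 24.2 to 53.0), and 17 genes in all had such a peak. Klf2 was highest (51.5), and 6 were at or above the upper quartile of the list, among them Tcf4 (36.14), Etv6 (31.34), the interferon signal transducer Stat2 (28.55) and Stat3 (26.65). The Notch partner Rbpj (13.43) was just above the list median, and 10 were below it. They were Irf2 (9.84), Maf (8.49), Nr4a1 (7.84), Klf4 (7.2), Rel (6.57), Nr4a3 (5.86), Cebpa (5.36), Nr4a2 (4.79), Fli1 (4.23) and Bach2 (3.69). Of the 17, 2 (Stat2 and Klf4) held TGTGGT in the window, close to the 11.9% of all CpG-rich promoter peaks. At least 1 of the 4 forms was held by 12, and by 54.1% of all CpG-rich promoter peaks. Of the RUNX genes and Cbfb, only Cbfb was CpG-rich at the TSS farthest 5' under the limits used. Composition at other promoters of these genes was not examined. Cbfb had a peak with a score of 14.2 (mm9 chr8:107694010-107694558, centre at -290 bp), with 0 forms of the hexamer in the window.

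Genes whose expression differed without Runx3 were tabulated by the study for CD4+ DC and for Esamhi DC, and were used here as lists of names. Of 412 names for CD4+ DC 399 matched a protein-coding gene, and 192 names (95.5%) in the table used for Esamhi DC did. These lists come from the same study and are not independent of its choices. Of 175 such genes in CD4+ DC with a CpG-rich promoter 30 had a CpG-rich promoter peak (17.1%, 12.3 to 23.4), below the 30.0% of all CpG-rich promoters. Peaks elsewhere at these genes were not counted here. The study assigned peaks of every position to genes and reported most of the 412 genes as bound. In Esamhi DC it was 15 of 73 (20.5%, 12.9 to 31.2). The highest scores among the CD4+ DC genes were those of Nceh1, a cholesterol ester hydrolase (40.54), the kinase Fyn (37.12), Lgmn (35.17), Gca (34.2), Oxct1 (28.36) and the stress-induced transcription factor Atf3 (27.46). Among the Esamhi DC genes they were those of Polm, a DNA repair polymerase (100.57), AW549877 (50.44), Hap1 (47.28) and the integrin gene Itga8 (24.94). Of the genes in both lists, Gadd45g (24.06), Dab2ip (20.62) and Ahrr (13.43) had the highest scores, and the others were below the list median.

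**Figure D5:**
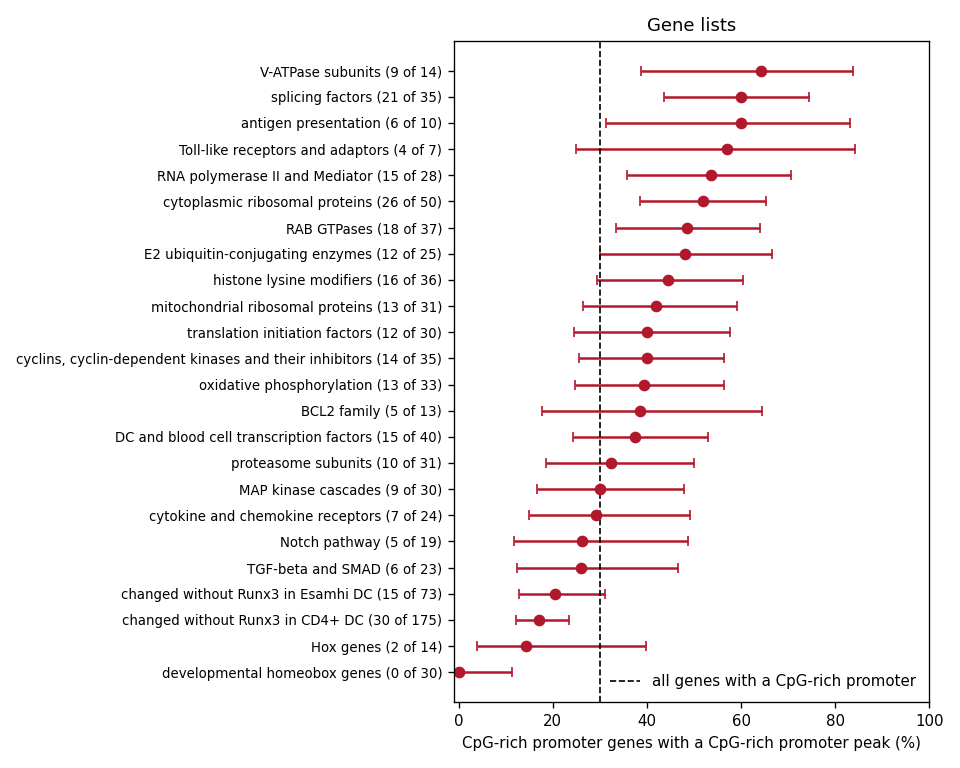
Share of genes with a CpG-rich promoter that have a CpG-rich promoter peak (horizontal axis, %, bars are Wilson 95% intervals), by gene group, with counts in parentheses and the share of all such genes, 30.0%, as a dashed line. V-ATPase subunits are at 64.3%, splicing factors at 60% and cytoplasmic ribosomal proteins at 52.0%, and developmental homeobox genes are at 0.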

How the data were processed

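Runx3 ChIP-seq was measured in 2 Runx3 and 2 input samples of sorted splenic CD4+ DC. The authors sequenced reads of 50 bp from fragments of about 300 bp, aligned them uniquely to mm9 with bowtie, and called peaks with MACS2 on both Runx3 samples against both input samples. The submitters' processing notes also name CASAVA 1.8. Other versions, the threshold and the treatment of duplicate reads are not given in the sources used here. The deposited list holds a start, an end and a score per peak, and the score, as the authors' peak caller wrote it, has no stated unit. Reads per sample and per peak were not analysed here. A missing peak means that none was called at this depth.

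Genes and TSS came from GENCODE M1 and sequences from NCBIM37, the assembly of mm9. Coordinates count from 1. Peaks were placed by their centre. Motifs were searched on both strands in the 200 bp around the centre, or within 200 bp of 1 TSS per gene, the one farthest 5'. Shares given for all promoters used 200 bp at that TSS, lying mostly on its side of lower coordinates on either strand. Shares have Wilson 95% intervals and differences Newcombe 95% intervals. A difference was called where its interval left out 0. Intervals cover counting error only, peaks are not replicates, and no p-value was computed. Hexamer search and interval coverage were tested on simulated data.

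The members (the 2965 peaks), gene lists and motifs were chosen with earlier results of these data known. Some gene list patterns were narrowed after their first use to leave out unrelated symbols. Genes named were the 15 highest scores, the highest score of each gene list, with further high scorers chosen after their values were seen, all members at transcription factor and RUNX genes, the 5 peaks with most TGTGGT, and the peaks nearest each composition limit. A few of the genes this rule names are not reported here. Alternatives were other score, distance and composition limits, other TSS, hexamers and windows, joined peaks and chromosomes 1 to 19. Computation used Python 3.11.15, numpy 2.4.6, pandas 2.3.3, scipy 1.17.1, pysam 0.24.0 and matplotlib 3.10.9. The microarray data of the study were not analysed here.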

Additional observations from a re-analysis of the deposited data

How the results depend on the processing

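Of 112 recomputed values, 91 held. For a difference this means the same sign and the same side of its call, for the number of peaks a value within 1.5 times, and for the share of genes a value within the interval of the reported one. TGTGGT remained less frequent in CpG-rich than in CpG-poor promoter and distal peaks under every alternative that kept this hexamer. With any of the 4 forms the differences were -6.58 and -11.2 points, and with TGCGGT 0.99 and 8.59 points. Between bound and unbound CpG-rich promoters the difference was 6.85 to 9.29 points under the alternatives that kept TGTGGT. It was 8.42 points for TGCGGT and 13.3 for any of the 4 forms. The score difference with and without the hexamer was 8.4 to 16.2 points over 15 alternatives, including 13.6 with any of the 4 forms. The 16.2 came from searching the whole peak, and peaks of higher score were wider, so that this value is not free of width. The difference in neighbouring peaks was -21.5 to -9.6 over 15 alternatives. The differences by binding, by score and in neighbouring peaks all kept their sign and left out 0. The excess in scores over CpG-poor promoter peaks did not hold. It was 2.13 points with a TSS distance of 500 bp, 3.04 with protein_coding transcripts only, 2.84 and 2.42 with CpG ratios of 0.5 and 0.75, 2.54 with composition from 200 bp, 2.59 with joined peaks and 0.23 at the upper quartile, all with intervals that include 0, and -2.94 with a GC minimum of 60%. Against distal peaks the score difference was -1.28 with a GC minimum of 60% and -1.58 at the upper quartile, and it left out 0 with a GC minimum of 50% (2.14), divergent promoters kept (2.24) and joined peaks (2.12). The number of CpG-rich promoter peaks fell to 1524 at or above the list median score and 722 at or above the upper quartile. The share of CpG-rich promoter genes with such a peak was then 15.9% and 7.67%, and it was 28.9% with a TSS distance of 500 bp and 24.0% with a GC minimum of 60%. The causes of these changes were not tested, apart from the smaller number of peaks left by the score filters. No paired analysis was possible because the peaks are 1 call on pooled samples, with no value per replicate. For the same reason no replicate could be left out.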
